A study of Drosophila melanogaster with 2 samples.

Results

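The neighbouring genes engrailed (en) and invected (inv) of Drosophila melanogaster were examined for regions bound by Engrailed-GFP, the tagged product of en itself. Members were chosen by position: a region belonged to the locus when its summit, the point of highest signal within it, lay in either gene body, between the genes or within 20 kb on either side. This interval spans 2R:11454465-11548210 (build dm6, 93.7 kb) and holds inv (FBgn0001269, 2R:11474465-11509695, plus strand), en (FBgn0000577, 2R:11524006-11528210, minus strand) and the 3′ part of E(Pc). It contained 27 of the 30000 regions of the list called on the pooled replicates, 28 of 30000 in replicate 1 and 29 of 30000 in replicate 3. It held 2 of the 2226 peaks that the authors retained by the irreproducible discovery rate (IDR). This procedure is designed to keep regions that rank consistently high in replicates. The IDR peaks were the pooled regions of ranks 1 to 2226, so membership equalled a cut on pooled signal. A peak could still have unlike ranks in the replicates.

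The data are from chromatin immunoprecipitation and sequencing of whole embryos, collected without separating the sexes at 0 to 16 h of age. The 3T-GFP line stably expresses en with GFP fused to the C-terminus, and the chromatin was precipitated with an antibody to GFP according to the description, while the antibody label reads en. Both samples carry this transgene and belong to a single group, as biological replicates 1 and 3; whether they came from separate embryo collections is not stated. The labels name an insertion targeting en, and do not say which promoter drives the transgene or whether it adds copies of DNA from the locus. The part of such copies in the signal at en was not tested. Because whole embryos were used, binding in the cells that express en and binding elsewhere cannot be told apart. Each region carries the authors' signal value, whose scale is not stated, so ranks are given beside signals and signals are compared only within a list. Read depth is unknown from these lists, no control library was analysed here, and 2 libraries of a single group allow no test, so all comparisons are descriptions.

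The en and inv genes encode closely related homeodomain proteins, which bind AT-rich DNA and act largely as repressors together with the corepressor Groucho. Both genes are expressed in the posterior compartment of each segment, where they maintain the boundary between compartments, and they share enhancers spread over the whole locus. In cells that do not express them they are kept silent by Polycomb-group proteins, recruited through Polycomb response elements (PREs) near the promoters. Engrailed is also known to regulate its own gene.

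The strongest region of the locus lay at the en promoter. It had a signal of 109 and rank 103 in replicate 1, a signal of 72.6 and rank 742 in replicate 3, and a signal of 179 and rank 317 in the pooled list. The region spans 2R:11528033-11528428, and its pooled summit at 11528231 lies 21 bp upstream of the outer of 2 annotated en transcription start sites (TSSs), at 11528210 and 11527883. The summit of replicate 3 fell on the same base, and that of replicate 1 lay 39 bp away. In both replicates this was the highest region of the interval.

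The replicates nevertheless placed the en promoter differently. The log2 signal of replicate 3 minus that of replicate 1 was -0.59, whereas the median over the 2220 IDR peaks found in both replicates was 0.61 (SD 0.56 across peaks). Only 48 of these peaks, 2.16%, had a lower difference. The second IDR peak of the locus differed by 0.32, and 29.1% of the IDR peaks lay below it. With 2 libraries, a difference between embryo collections and one between immunoprecipitations cannot be told apart.

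The IDR peak at inv lay at the other end of its gene from the promoters. It spans 2R:11507392-11507787, with its summit at 11507590 in the last exon of the inv transcript that reaches farthest 3′ (exon 4 of FBtr0345673, 2R:11506649-11509695), in its untranslated part. The other annotated inv transcripts end at 11507180, upstream of this summit. Its signal was 33.6 in replicate 1 and 42.0 in replicate 3, at ranks 1608 and 2036, and its pooled signal of 77.7 had rank 1648. The summits of both replicates lay within 4 bp of the pooled summit, so its position hardly varied between the lists. It was 33125 bp downstream of the outer inv TSS and 20293 bp from the nearest en TSS.

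**Figure D1:**
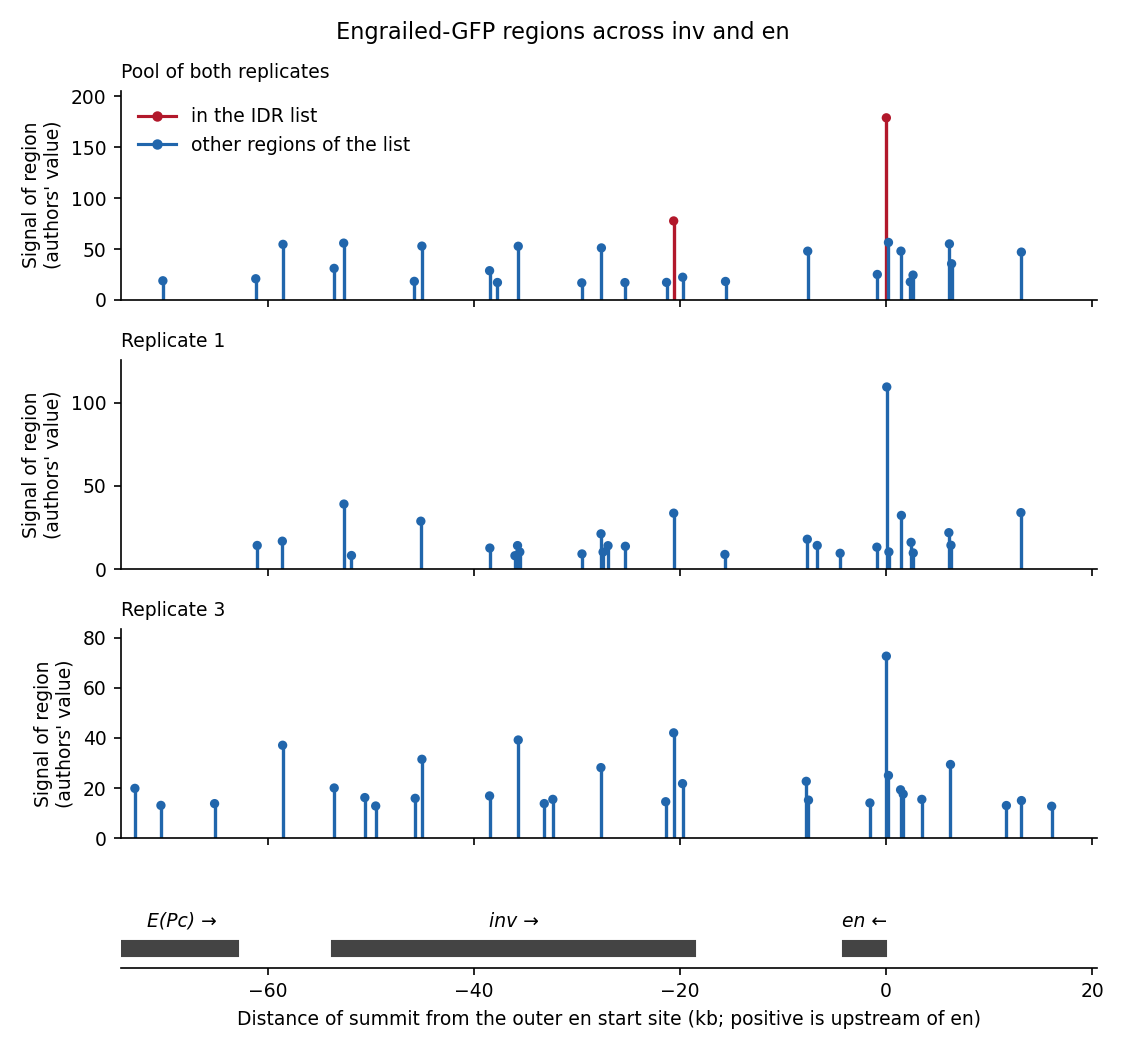
Signal (authors' value, linear axis) of every region in the interval, for the pool and each replicate, against the distance of its summit from the outer en start site in kb; bars below show the genes with arrows in the direction of transcription, E(Pc) being cut off at the edge of the interval. The en promoter is highest in all 3 lists, with signals of 179, 109 and 72.6 in the pool, replicate 1 and replicate 3, and regions are scattered across the rest of the locus.

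The inv promoters carried weaker regions, each found in a single replicate list. At the inner TSS (11475708), the pooled region 2R:11475365-11475760 had a signal of 55.8 and rank 2905, with its summit 145 bp from the TSS. It overlapped a region of signal 39.1 at rank 1221 in replicate 1 and no region in replicate 3. At the outer TSS (11474465), the pooled region 2R:11474437-11474832 had a signal of 31.0 and rank 9254, with its summit 170 bp downstream of the TSS. This one overlapped a region of signal 20.1 at rank 10359 in replicate 3 and none in replicate 1. So neither pooled region at an inv promoter overlapped a region in both replicates, whereas the en promoter stood in the first 1000 regions of both.

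A run of further regions lay upstream of en, the side on which its PREs are known to lie. In the 20 kb upstream of the gene the pooled list had 8 regions, 4 per 10 kb, against 3.69 per 10 kb within inv, 1.40 between the genes and 1.5 in the 20 kb upstream of inv. These 8 include the en promoter region itself, and all 3 overlapping pairs of neighbouring pooled regions of the locus lie in this stretch. Each region of a pair was counted singly, so the small difference from inv shows no preference for this side. A region at 2R:11528239-11528634, its summit 227 bp from the TSS, had a pooled signal of 56.5 at rank 2847 and shared 190 bp with the promoter region. It was weak in replicate 1, with a signal of 10.3 at rank 18736, and had a signal of 25.1 at rank 6150 in replicate 3. The next, at 2R:11529451-11529846 and 1439 bp upstream, showed the opposite order: 32.2 at rank 1739 in replicate 1, 19.3 at rank 11321 in replicate 3 and a pooled signal of 48.0.

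Farther upstream of en, 2 overlapping regions with summits 6142 and 6356 bp from the TSS had pooled signals of 55.1 and 35.6. The same replicate 3 region, of signal 29.4 and rank 4294, matched both, while replicate 1 had separate regions of 21.9 and 14.3 there. The most distant pooled region of the interval on this side, 13126 bp upstream at 2R:11541138-11541533, had rank 1581 in replicate 1 with a signal of 33.9, rank 19490 in replicate 3 with 15.0, and a pooled signal of 47.0. A further 2 regions, 2345 and 2611 bp upstream, had pooled signals of 17.7 and 24.4 and overlapped regions of replicate 1 alone. Within the en gene body there was a single pooled region, in the coding part of exon 1, 529 bp from the inner TSS, with a signal of 25.0.

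Within inv, most regions lay in its long intron (2R:11477270-11504928, 27.7 kb), which held 8 pooled regions, 10 regions of replicate 1 and 9 of replicate 3. Of the 8, 3 had a pooled signal over 50, and each of these overlapped a region in both replicates. The first, 8687 bp downstream of the outer inv TSS, had a pooled signal of 52.9, with 28.8 in replicate 1 and 31.5 in replicate 3, at ranks 2175 and 3671. The second, 18039 bp downstream, had a pooled signal of 52.8, with 14.1 and 39.2 in replicates 1 and 3, at ranks 9683 and 2347. The third, 26110 bp downstream, had a pooled signal of 51.1, with 21.2 and 28.2, at ranks 4066 and 4707. These were close in pooled signal and differed in how the replicates ranked them.

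The remaining stronger regions lay outside the transcribed parts. Upstream of inv, 2R:11469474-11469869 had a pooled signal of 54.6 with its summit 4793 bp from the TSS. It had rank 6707 in replicate 1 with a signal of 16.8, and rank 2588 in replicate 3 with 37.1. Between the genes, 2R:11520401-11520796, 7284 bp from the nearest en TSS, had a pooled signal of 47.9. It overlapped a region of signal 17.9 and rank 5853 in replicate 1, and 2 regions in replicate 3, with signals of 22.7 and 15.2.

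The locus held IDR peaks at the rate of the whole list and a larger share of regions ranked just below them. Its 2 IDR peaks were 7.41% of its 27 pooled regions (95% exact Clopper-Pearson interval 0.910 to 24.3, counting error only), against 7.42% of all pooled regions, so the share of peaks was that of the whole list. Of the remainder, 10 stood between ranks 2847 and 4026, with signals from 47.0 to 56.5, below the lowest IDR signal of 65.1. Together, 12 of the 27 regions (44.4%, exact interval 25.5 to 64.7) were among the first 5000, against 16.7% of all pooled regions. Between the last IDR rank and rank 5000 stood 37.0% of the pooled regions of the locus, against 9.25% of all. The limit of 5000 was chosen after these ranks were seen.

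This excess was smaller in each replicate list alone. Among the first 5000 regions stood 8 of the 28 locus regions of replicate 1 (28.6%, exact interval 13.2 to 48.7) and 7 of the 29 of replicate 3 (24.1%, 10.3 to 43.5), against 16.7% of all regions in either list. Both intervals include 16.7%. The exact intervals, here and for the pooled list, take regions as independent, while 3 pairs of neighbouring pooled regions of the locus overlap. They are therefore no test of a difference from 16.7%. In replicate 1, 6 of the 28 (21.4%, 8.30 to 41.0) were among the first 2226, against 7.42% of all, and in replicate 3 they were 2 of 29 (6.90%), also against 7.42%. The median signal of the locus was 31.0, against 24.5 over all pooled regions, 14.2 against 11.5 in replicate 1, and 16.9 against 17.0 in replicate 3. Of the 27 pooled regions, 8 (29.6%) had the maximal −log10 q-value of the list, against 11.1% of all. In replicate 1 this held for 6 of 28 (21.4%, against 7.93% of all), and in replicate 3 for 3 of 29 (10.3%, against 8.57%).

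**Figure D2:**
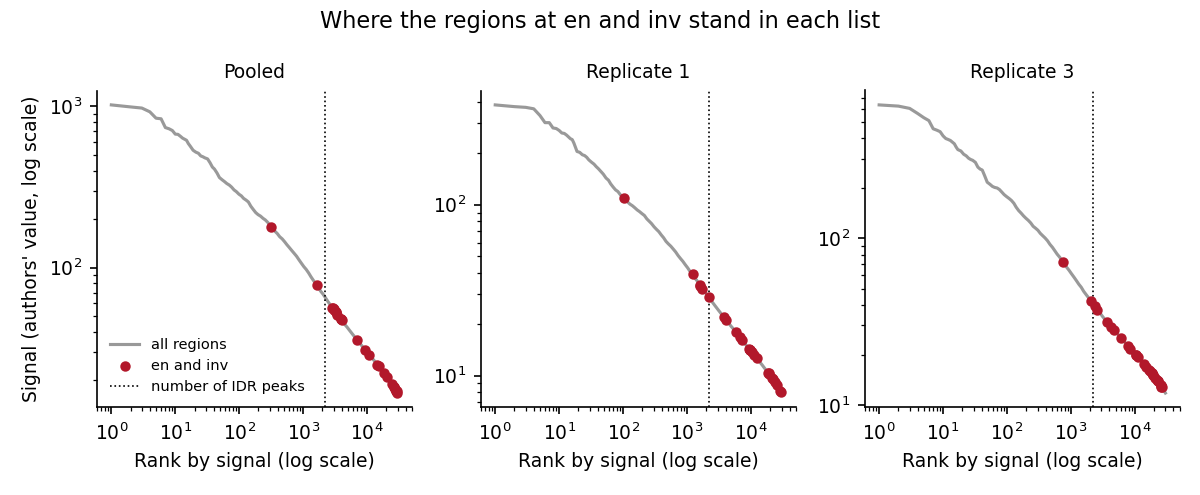
Signal against rank (both axes logarithmic) for all regions of each list (grey line) and the regions at en and inv (red points); the dotted line marks 2226, the number of IDR peaks. In the pooled list 2 red points lie left of the line and a group of 10 lies just to its right, while 6 lie left of it in replicate 1 and 2 in replicate 3.

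Most strong regions of the locus in replicate 1 were not among the strong regions of replicate 3, while those of replicate 3 were strong in replicate 1. The 6 regions of replicate 1 within its first 2226 were, by rank, those at the en promoter, at the inner inv TSS, 13126 bp upstream of en, in the inv 3′ region, 1439 bp upstream of en and in the first part of the long inv intron. Of these, 5 overlapped some region of replicate 3, and 2 (33.3%) overlapped one within its first 2226, against 69.9% of all such regions. The pair shared was the en promoter and the inv 3′ region, which were also the 2 locus regions of replicate 3 within its first 2226. In that direction the share was therefore 2 of 2 (100%), against 69.5% of all such regions of replicate 3. With 6 and 2 regions these shares are imprecise and were not tested.

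Over the whole locus, 13 of the 27 pooled regions (48.1%) overlapped a region in both replicates, against 51.9% of all pooled regions, so the share was close to that of the whole list. Of the regions of replicate 1, 16 of 28 (57.1%) overlapped one of replicate 3, against 51.7% of all, and of those of replicate 3, 14 of 29 (48.3%) overlapped one of replicate 1, against 52.2%. Among the pooled regions, a further 8 overlapped a region of replicate 1 alone, 5 of replicate 3 alone and 1 neither. Across the 13, the median log2 difference of replicate 3 minus replicate 1 was 0.41 (range -1.17 to 1.47, SD 0.82), against 0.56 (SD 0.62) over 15580 pooled regions found in both. Signal was lower in replicate 3 at 4 of the 13, against 18.6% of all. Among the 4 was the region between the genes, where the replicate 3 value (15.2) is that of the nearer summit of 2 overlapping regions. The other had a signal of 22.7, above the 17.9 of replicate 1, so this case depends on the matching rule. The rank was better in replicate 1 at 9 of the 13, against 49.5% of all. The Spearman correlation of the signals over these 13 regions was 0.19, against 0.51 over all 15580. It describes this pair of libraries, and neighbouring regions can overlap the same replicate region: the 13 correspond to 12 distinct regions of replicate 3.

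**Figure D3:**
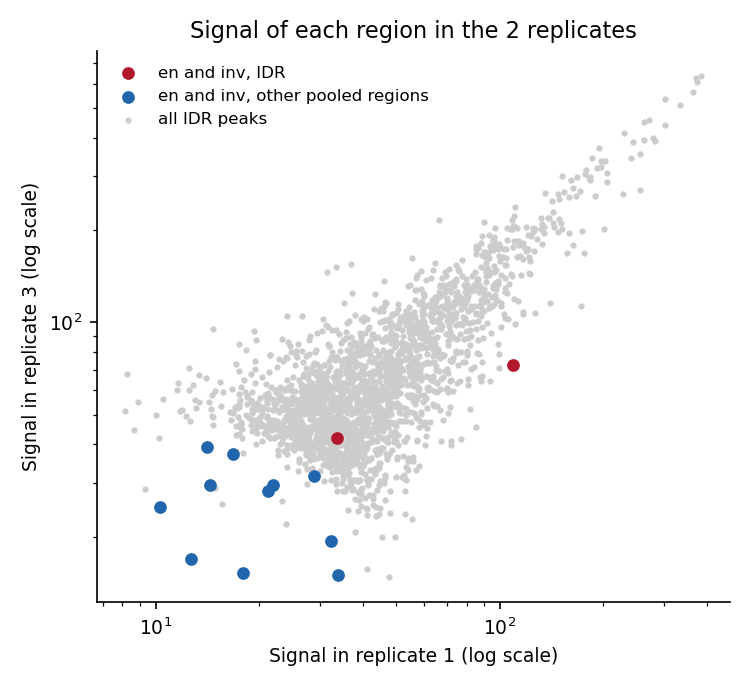
Signal in replicate 3 against signal in replicate 1 (both axes logarithmic) for the 13 pooled regions at en and inv found in both lists (red, the 2 IDR peaks; blue, the other regions) and for 2220 IDR peaks found in both (grey). The en promoter, at 109 and 72.6, lies among the lowest of the grey points of similar signal in replicate 1, and the blue points, from 10.3 to 33.9 in replicate 1, are scattered with little trend.

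By position, a smaller share of the locus regions lay at promoters and a larger share was intergenic than in the list as a whole. The rule for the interval takes in much sequence outside genes: the 20 kb upstream of en and the 14310 bp between inv and en. The shares were not set against the length of promoter and intergenic sequence in the interval, so they show no preference for either. A promoter was taken as 500 bp around any TSS. Of the 27 regions, 4 were at promoters (14.8%, against 30.8% of all), 3 in coding exons (11.1%, against 9.18%), 2 in untranslated exons (7.41%, against 6.28%), 8 in introns (29.6%, against 38.5%) and 10 intergenic (37.0%, against 15.2%). The 4 promoter regions had a median pooled signal of 56.2, against 28.3 for all promoter regions, and the 10 intergenic regions had 41.3, against 23.7 for all intergenic regions. Neighbouring summits were a median of 2151.5 bp apart in the locus, against 1539.5 bp over all pooled regions, while the locus had 28.8 regions per 100 kb, against 22.4 over the chromosome arms. The longest gap was 9015 bp in the locus and 1256223 bp over the arms.

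The sequence around the summits was searched for short motifs, counting matches on both strands up to 50 bp from each summit. The homeodomain sequence TAATTA occurred at 1 of the 27 regions (3.70%, exact interval 0.0937 to 19.0), against 6.65% of all pooled regions, and at neither of the IDR peaks of the locus. The exception was the weakest region of the locus, in the long inv intron 24206 bp downstream of the outer TSS, with 2 matches and a pooled signal of 16.8. It lies in the stretch of 1 kb that holds the most TAATTA matches of the interval, 5 in all (2R:11498363-11499362). The interval had 78 TAATTA matches, 8.32 per 10 kb against 7.31 over the arms, of which 7.69% lay within a pooled region, while these regions cover 10.9% of the interval. The related CAATTA occurred near the summit of 1 region (3.70%, against 9.68%), and the interval had 17.0 matches per 10 kb, against 10.4 over the arms. Of its 159 CAATTA matches, 11.9% lay within a pooled region, close to the 10.9% of the interval that these regions cover. The shorter core TAAT, which is contained in TAATTA, occurred at 16 regions (59.3%, against 62.3%), including both IDR peaks.

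Regions at the en promoter held other motifs. GAGAG, the sequence bound by GAGA factor, a protein that binds PREs, occurred at 3 of the 27 regions (11.1%, against 11.9% of all pooled regions). These were the 3 consecutive regions 21, 227 and 1439 bp upstream of the en TSS, with 6, 1 and 3 matches, counting matches that overlap each other. Counting the en promoter itself, 90 of the 30000 pooled regions (0.3%) had 6 or more matches, as did 5 of the 2226 IDR peaks (0.225%), all 5 of them among the 1098 IDR peaks at promoters (0.455%). GCCAT, the core of the sequence bound by the PRE-binding protein Pho, occurred at 6 regions (22.2%, against 17.9%), among them the regions 227, 1439 and 2611 bp upstream of en, with 2, 1 and 1 matches, and the inv 3′ peak with 1. CGATA, bound by the insulator protein BEAF-32, occurred at 1 region (3.70%, against 13.7%), in E(Pc). No test was made on these matches, and a match is not a binding site.

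The summits at the locus were richer in G and C than most. The median G+C content within 50 bp of the summit was 48.5% at the 27 regions, against 39.6% at all pooled regions and 33.7% at all IDR peaks. The en promoter had 55.4% and the inv 3′ peak 38.6%. As much as at the en promoter or more was found at 3367 of all pooled regions (11.2%) and at 41 of all IDR peaks (1.84%), the en promoter included. The whole interval had 43.8%, against 42.2% over the arms. The part of base composition in the signal was not tested.

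**Figure D4:**
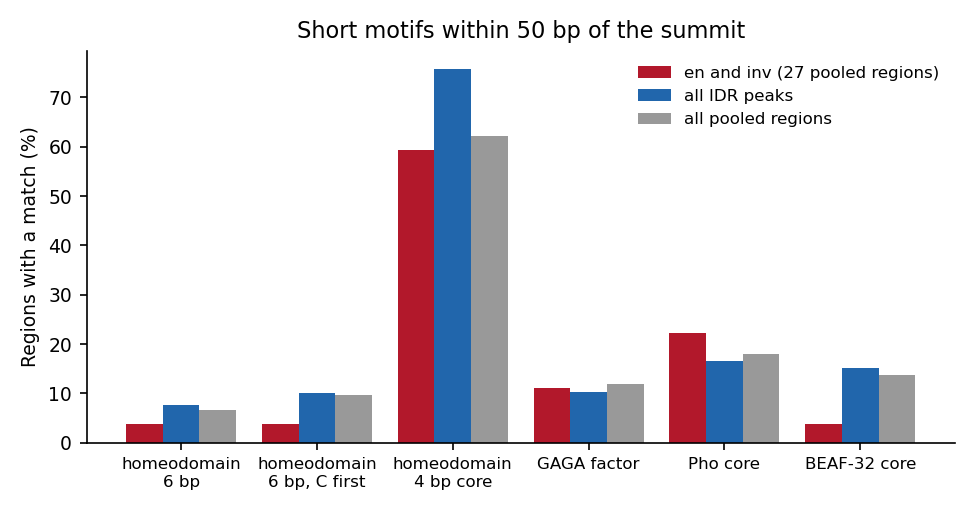
Share of regions with a motif match within 50 bp of the summit (percent, axis from 0) for the 27 pooled regions at en and inv, all 2226 IDR peaks and all 30000 pooled regions; the motifs are named by the proteins that bind them. Each region of the locus counts for 3.70%, so the red bars of that height, for both 6 bp homeodomain motifs and BEAF-32, stand for 1 region each.

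The nearest IDR peak beyond inv lay 63543 bp upstream of it (2R:11410724-11411119, signal 74.0), nearest to the TSS of CG34054. The nearest beyond en lay 65549 bp upstream of it (2R:11593561-11593956, signal 103), within 633 bp of a TSS of toutatis (tou), which encodes a chromatin-remodelling protein and is the next gene on that side. The promoters of the flanking genes had pooled regions and no IDR summit within 500 bp: the highest at E(Pc), which encodes a subunit of the Tip60 histone acetyltransferase complex, had a signal of 42.8 at rank 4824, and the highest at tou had 59.8 at rank 2573. The outermost pooled regions of the interval had signals of 18.8, 16452 bp from the inv TSS within E(Pc), and 47.0, 13126 bp from the en TSS. The first pooled regions outside it had signals of 39.1, 624 bp beyond the edge near E(Pc), and 48.6, 5447 bp beyond the edge upstream of en.

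Other neighbouring paralogue pairs of segmentation genes differed from en and inv in how their signal was spread. The locus of en and inv had 2 IDR peaks among 27 pooled regions, and 12 regions (44.4%) within the first 5000. The forkhead genes slp1 and slp2, by the same rule (2L:3805675-3859185), had 4 IDR peaks among 21 pooled regions (19.0%, exact interval 5.45 to 41.9) and 7 regions (33.3%) within the first 5000. Their highest, with a pooled signal of 281 at rank 102, was intergenic, 4318 bp from the slp2 TSS, and had ranks 159 and 85 in replicates 1 and 3. The Pax genes gsb and gsb-n (2R:25020383-25084643) had 0 IDR peaks of 18 pooled regions (exact interval 0 to 18.5%). The simpler limit of 3 counts of the total is 16.7%. This pair had 1 region (5.56%) within the first 5000, with a highest signal of 42.4. The median pooled signal was 31.0 at en and inv, 26.9 at slp1 and slp2 and 20.1 at gsb and gsb-n, against 24.5 over all pooled regions. The intervals for en and inv (0.910 to 24.3%) and for slp1 and slp2 overlap, and the difference between pairs was not tested.

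**Figure D5:**
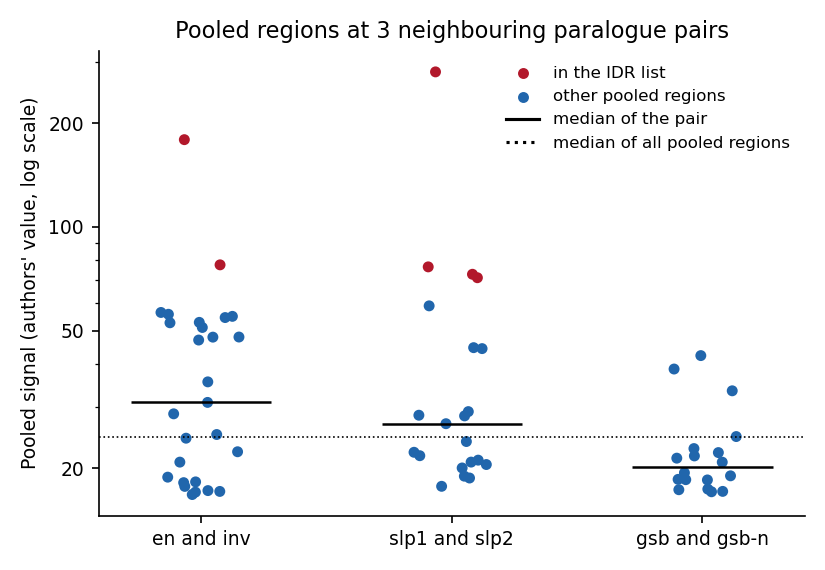
Pooled signal (authors' value, logarithmic axis) of every pooled region at en and inv, slp1 and slp2, and gsb and gsb-n; each point is a region, red where it is in the IDR list, with horizontal spread added for legibility. The bars mark medians of 31.0, 26.9 and 20.1, and the dotted line is the median of 24.5 over all pooled regions.

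The regions whose signals in both replicates were closest to those of the en promoter were also listed. Such likeness in signal carries no information on the function of the nearby genes. Likeness was the Euclidean distance between log2 signals in replicates 1 and 3, over 15580 pooled regions found in both, and each gene is that of the nearest TSS. Among the 5 nearest regions to the en promoter were those near RpL30, CG31808, Tsp42El and CG43131, at distances from 0.14 to 0.28. The CG43131 region was intergenic, 1016 bp from the TSS. RpL30 encodes a protein of the large ribosomal subunit. The RpL30 region had a signal of 99.7 in replicate 1 and 71.0 in replicate 3. The Tsp42El region was not in the IDR list and had a pooled signal of 18.2 at rank 25975, and its values are those of the replicate regions that overlap it. For the inv 3′ peak the 5 nearest lay near Ac13E, Su(z)12, Apc and, with 2 overlapping regions that share their replicate regions, lncRNA:CR45677, at distances from 0.021 to 0.049. Su(z)12 encodes a core subunit of Polycomb repressive complex 2, and Apc a negative regulator of Wingless signalling.

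Genes that act with en were examined at their promoters, where the en promoter carried an IDR summit and both inv promoters did not. Of all 13945 protein-coding genes, 1350 (9.68%) had an IDR summit within 500 bp of a TSS. Of 8 targets of Engrailed 3 had one: the Polycomb-group gene ph-p (signal 740, 483 bp from its TSS), the Hedgehog receptor gene ptc (120) and ci (70.0), which encodes the transcription factor of the Hedgehog pathway and is repressed by Engrailed. Within 200 bp of a TSS the count was 2, without ph-p. The ptc region had ranks 359 and 1036 in replicates 1 and 3, the ci region 1183 and 6021, and the ph-p region 7 and 9. Each was better in replicate 1, as were 45.4% of the IDR peaks found in both replicates. At the IDR summits of gro, Trl and Sfmbt, described below, the rank was better in replicate 3. The targets dpp, wg and slp1 had pooled regions of signals 36.2, 25.7 and 20.5 at their promoters, while hh and Ubx had none.

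Of 3 cofactors, gro, the gene of the corepressor Groucho, had an IDR summit with a pooled signal of 227, at ranks 219 and 179 in replicates 1 and 3. The genes exd and hth, whose homeodomain proteins bind DNA with Engrailed, had pooled signals of 20.8 and 41.9. Of 10 genes for PRE-binding proteins 2 had an IDR summit, Trl, which encodes GAGA factor (119), and Sfmbt (114). Combgap (cg) and Spps had pooled signals of 58.5 and 50.7, with ranks 1625 and 1101 in replicate 1, against 21225 and 17038 in replicate 3. The rank was also better in replicate 1 at pho, psq and grh. It was better in replicate 3 at Trl (940 in replicate 1 and 644 in replicate 3), Sfmbt (1657 and 695) and phol (15248 and 3422). Of 13 regulators of en, 0 had an IDR summit at a promoter, which allows a share of up to about 23.1% (3 counts of the total). Of the 13, 10 had a pooled region at a promoter (76.9%, against 51.2% of all protein-coding genes). The highest was hairy (hry, a pair-rule repressor), with a signal of 53.6, and eve, ftz and run had no pooled region within 500 bp of a TSS. The hry region had rank 1866 in replicate 3 and overlapped no region of replicate 1. The pooled list includes background, and the regions at prd, slp1 and slp2 had pooled ranks of 26889, 21223 and 20595. The share of genes with a pooled region was not adjusted for the number of TSSs per gene. The list shares wg and slp1 with the targets.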

How the data were processed

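The deposited data are lists of genomic regions. The authors deposited 30000 regions, peaks and background together, for the pool and for either replicate, each derived from the alignments and a control file, and an IDR list derived from these 3, per the deposited text descriptions. Regions carry the authors' signal value and a −log10 q-value, as the deposited narrowPeak columns define them. Neither the labels nor the files name the aligner, the peak caller or the threshold of the IDR. Sonicated fragments were 200 to 800 bp, per the labels. Lists in build dm6 were used, and those in dm3 were not used here, since coordinates were not converted.

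Gene models were those of Ensembl release 115, without transposable elements (18164 genes on the major arms), and motifs were counted in the RefSeq genome of the same build. Coordinates are 1-based. A region was matched in a replicate when at least 1 bp overlapped, taking the nearest summit. Ranks follow signal. Shares have exact Clopper-Pearson intervals at 95%, and the upper limit for a count of 0 is 3 counts of the total. Both cover counting error only. Matching and motif counts were tested on simulated data. Python 3.11.15, pandas 2.3.3 and SciPy 1.17.1 were used. The alternatives tried were other flanks, promoter distances, matching rules, motif windows and single replicates.

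By rule, the text named en, inv and their neighbours, the genes nearest to described regions, the 5 regions most alike to each strongest region, the listed genes and the other paralogue pairs. Described regions were the IDR peaks, the 8 next by pooled signal and those nearest to each TSS. The remaining regions were added after their values were seen. Of the regions most alike to the en promoter, 1 is not reported here. The annotation lists the gene h as hry. The members and lists were chosen with earlier results of these data known.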

Additional observations from a re-analysis of the deposited data

How the results depend on the processing

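The region lists carry no depth, and the count of 2 replicates limits every statement on their difference. Of 68 alternative values, 50 stayed within 1.5 times of a count, the exact interval of a share or the spread between replicates, and 18 moved. The 2 IDR summits stayed 2 with 10 or 5 kb on either side or with any overlap, and were 1 with 0 kb, which leaves out the en promoter summit upstream of the gene, and 1 among the first 1113 peaks of the IDR list by signal. With the highest regions of 1 replicate in place of the IDR list, the count ranged from 2 without replicate 1 to 6 without replicate 3. The 27 pooled regions were 16 with 0 kb. The 12 regions within the first 5000, a cut chosen after seeing the data, were 6 with 0 kb, and ranged from 7 without replicate 1 to 8 without replicate 3. The median log2 signal of the locus over that of all regions was 0.34, and ranged from -0.0081 without replicate 1 to 0.30 without replicate 3. The rank of the inv 3′ peak, 1648 in the pool, ranged from 1608 to 2036 in single replicates. The rank of the en promoter, 317 in the pool, was 742 without replicate 1 and 103 without replicate 3. These en values were counted as having stayed, so that label does not mean a small change. Where the spread between replicates sets the limit, a wider spread lets more values stay. Genes for PRE-binding proteins with a promoter summit were 2, and 1 with 200 bp. Of the flanking genes E(Pc) and tou, 0 had one, and 1 with 1000 bp. For slp1 and slp2 the 4 IDR summits were 2 with 10, 5 or 0 kb, and the 21 pooled regions were 11, 7 and 5. For gsb and gsb-n the 18 pooled regions were 9 with 5 kb and 6 with 0 kb. Apart from the en promoter summit, which lies outside the gene body, the cause of these moves was not tested. No paired analysis was possible because there is only 1 group.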
